A study of Mus musculus with 27 samples.

Results

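The sites described here are the genomic intervals at which an HA-tagged nuclear form of SREBP1c was called as bound in mouse liver and at which no HDAC3 interval was called. They were chosen by the called peak positions themselves, as intervals of the HA list that overlap, by at least 1 bp, no interval of either HDAC3 list, on the mouse build mm9. There are 2906 such intervals among 7701 SREBP1c intervals (37.7%), and they are called HDAC3-free sites below. The other 4795 SREBP1c intervals (62.3%) overlap at least 1 HDAC3 interval and are called HDAC3-overlapping sites. Free of HDAC3 means here that no interval was called, since the lists give no score and no signal.

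Chromatin came from C57Bl/6 mice that had received AAV8, a viral vector with tropism for hepatocytes, 10 days earlier and were fed ad lib. The HA ChIP was made in 2 samples of livers given HA-nSREBP1c. The HDAC3 ChIP was made in 3 samples of livers given HA-nSREBP1c and in 3 samples of livers given GFP as control. The input pool of the HA ChIP came from GFP livers, and that of the HDAC3 ChIP from HDAC3-floxed livers given Cre, which removes HDAC3. Each ChIP condition is represented by 1 deposited list, so values below have no replicate error and no test was made between lists. The tagged protein was delivered by a virus, so these sites are those of the introduced factor in whole liver. The endogenous SREBP1c was not mapped.

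SREBP1c is a transcription factor made as a membrane protein, whose amino-terminal part enters the nucleus after cleavage and switches on genes of fatty acid and triglyceride synthesis. It binds sterol regulatory elements and E-boxes, often beside NF-Y and Sp1. HDAC3 removes acetyl groups from histones as the enzyme within the corepressor complexes NCoR and SMRT, which in liver are brought to chromatin by nuclear receptors and other factors and restrain lipid synthesis genes. An SREBP1c site with no HDAC3 interval is therefore one where the activator was called and this corepressor enzyme was not.

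The HDAC3-free sites lie together in the deposited HA list, which is divided by blank lines into 4 blocks. The first block holds 3503 intervals with identical coordinates in both HDAC3 lists. The second block holds 3007 intervals that are found in neither HDAC3 list. The third block holds 706 intervals shared with the GFP list only, and the fourth 485 shared with the list of HA-nSREBP1c livers only. All 2906 HDAC3-free sites lie in the second block. Intervals with identical coordinates, 3988 with the HDAC3 list of HA-nSREBP1c livers and 4209 with that of GFP livers, also stand in the same order in each pair of files.

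The remaining 101 intervals of the second block overlapped a neighbouring HDAC3 interval of different coordinates and are therefore not counted as HDAC3-free. Of these, 41 overlapped an interval of both HDAC3 lists, 23 one of HA-nSREBP1c livers only and 37 one of GFP livers only. Their starts differed from the HDAC3 interval by 101 to 196 bp, which puts them just outside the rule. Just inside it, 45 HDAC3-free sites had an HDAC3 interval with its centre less than 300 bp away, the closest at 201 bp. That closest site, chr5:91069498-91069697, had its HDAC3 neighbour in GFP livers only, and the nearest HDAC3 interval of HA-nSREBP1c livers was 49426 bp away. The next, chr7:39002639-39002838, was 204 bp from an HDAC3 interval in both conditions. Within each list no pair of intervals started less than 101 bp apart.

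HDAC3-free sites lay farther from the surrounding HDAC3 intervals than HDAC3-overlapping sites did. The median distance between centres to the nearest HDAC3 interval of either condition that was not overlapping was 12234 bp for HDAC3-free sites (quartiles 2791 and 42906 bp). For HDAC3-overlapping sites it was 4237 bp (quartiles 1460 and 14614 bp), not counting the HDAC3 interval on the site itself. HDAC3 was called within 10 kb of 1354 HDAC3-free sites, or 46.6% (exact Clopper-Pearson 95% interval 44.8 to 48.4%). The same held for 3301 HDAC3-overlapping sites, or 68.8% (67.5 to 70.2%). These intervals cover counting error only, and neighbouring sites are not independent of each other. The classes were defined by the same HDAC3 lists to which the distances run, so the comparison is a description. How far the rule itself sets its direction was not tested.

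The difference between the classes was small at the shortest distances. An HDAC3 interval lay from 200 bp to under 500 bp away for 145 HDAC3-free sites (4.99%) and for 246 HDAC3-overlapping sites (5.13%). From 500 bp to under 1 kb the shares were 6.68% of HDAC3-free and 12.1% of HDAC3-overlapping sites. At 2 to 5 kb they were 13.8% and 21.9% in the same order. Far from HDAC3 the order of the classes was the opposite, with 11.4% of HDAC3-free and 4.5% of HDAC3-overlapping sites at 100 kb to 1 Mb. The distance curves run together below about 500 bp and then part.

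**Figure D1:**
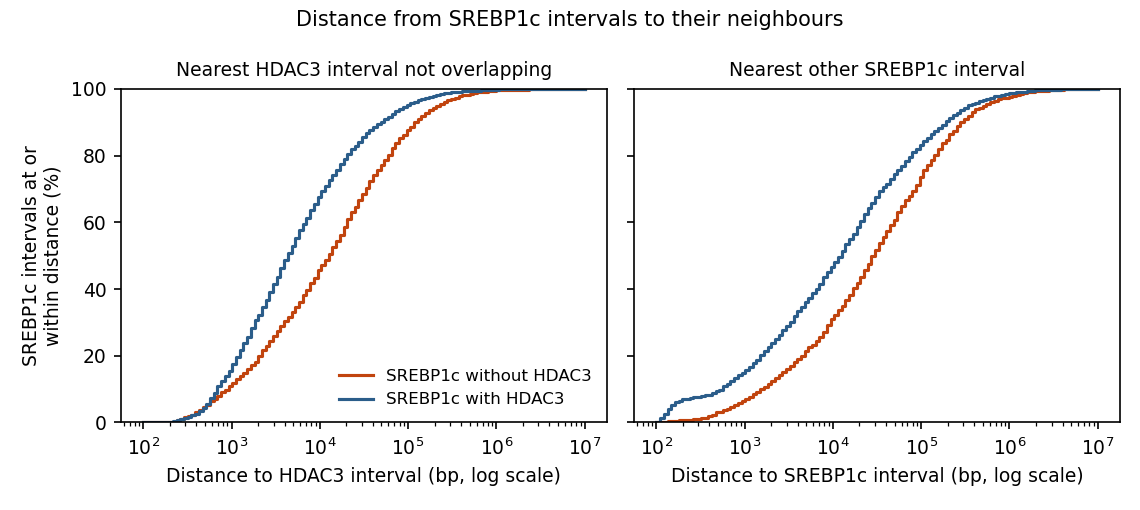
Cumulative percent of SREBP1c intervals (y axis) whose nearest neighbour lies at or within a given distance between centres (x axis, bp, log scale), for sites without HDAC3 (orange) and with HDAC3 (blue). Left, nearest HDAC3 interval that does not overlap the site, where 46.6% of sites without HDAC3 and 68.8% of sites with HDAC3 are reached by 10 kb; right, nearest other SREBP1c interval, where the shares are 31.6% and 47.7%.

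Among the HDAC3-overlapping sites, those with HDAC3 in HA-nSREBP1c livers only came nearest to the HDAC3-free sites in this measure. Their median distance to another HDAC3 interval was 9021 bp over 495 sites. It was 4927 bp over 719 sites with HDAC3 in GFP livers only and 3824 bp over 3581 sites with HDAC3 in both. HDAC3 intervals that are no SREBP1c interval, 15616 in all, had a median of 6680 bp to the next HDAC3 interval. All of these medians were shorter than the 12234 bp of the HDAC3-free sites.

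An HDAC3 interval of either list lay within 1 kb of 339 of the 2906 HDAC3-free sites, or 11.7% (95% interval 10.5 to 12.9%), and none did for the other 2567. Another HDAC3 interval lay as near to 17.3% of HDAC3-overlapping sites and to 14.4% of HDAC3 intervals that are no SREBP1c interval, so most sites of each kind had none so close. HDAC3 was called within 1 kb in both conditions beside 215 sites (7.4%), in HA-nSREBP1c livers only beside 33 (1.14%) and in GFP livers only beside 91 (3.13%). The median distance to HDAC3 was 18556 bp in the list of HA-nSREBP1c livers and 14666 bp in that of GFP livers, a ratio of 1.27. For HDAC3-overlapping sites the medians were 6451 bp and 4779 bp in the same order, a ratio of 1.35. The HDAC3 list of HA-nSREBP1c livers holds 13798 intervals, 74.7% of the 18471 in GFP livers, and a shorter list gives longer distances.

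Of the 2906 HDAC3-free sites, only 7 had HDAC3 within 1 kb in one condition and none within 100 kb in the other. In 5 of them the near interval was in HA-nSREBP1c livers. The site chr6:17121276-17121475 was 277 bp from HDAC3 in HA-nSREBP1c livers and 169236 bp in GFP livers. The site chr17:90046018-90046217 was 601 bp from HDAC3 in HA-nSREBP1c livers and 1032353 bp in GFP livers, and it stood 1204935 bp from any other SREBP1c interval. In the other 2 the near interval was in GFP livers, as at chr7:121706574-121706773, which was 199020 bp from HDAC3 in HA-nSREBP1c livers and 562 bp in GFP livers. Without the 100 kb condition the order was the opposite, 33 sites in HA-nSREBP1c livers only and 91 in GFP livers only. Such sites were not counted among HDAC3-overlapping sites.

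The HDAC3 interval nearest to an HDAC3-free site was called in both conditions in 55.3% of cases, in HA-nSREBP1c livers only in 12.8% (95% interval 11.6 to 14.1%) and in GFP livers only in 31.9%. Among all HDAC3 intervals the shares were 58.9%, 9.05% (8.66 to 9.46%) and 32.1%. Where the nearest one lay within 1 kb, 60.8% of 339 were called in both (55.3 to 66%). These counts include HDAC3 intervals that are SREBP1c intervals too, and an HDAC3 interval can be nearest to several sites. Shares among nearest intervals and among all intervals are thus unlike measures. The nearest interval of HDAC3-overlapping sites was not sorted in this way, so no excess can be read from them. Between 200 bp and 1 kb from the nearest HDAC3-free site there were 244 HDAC3 intervals that are not themselves SREBP1c intervals. Of these, 53.7% were called in both conditions (95% interval 47.2 to 60.1%), 11.5% in HA-nSREBP1c livers only (7.76 to 16.2%) and 34.8% in GFP livers only (28.9 to 41.2%). At 1 to 10 kb, 10 to 100 kb and beyond 100 kb the share in HA-nSREBP1c livers only was 9.67%, 8.79% and 8.38%. The share called in both was 52.9%, 52.6% and 55.2% at the same distances. Around HDAC3-overlapping sites, counted in the same way without SREBP1c intervals, 60.5% of 549 intervals at 200 bp to 1 kb were called in both (56.2 to 64.6%), as were 52.6% of 6358 beyond 100 kb. The share in HA-nSREBP1c livers only was 6.56% (4.63 to 8.96%) and 9.66% at the same distances. The same HDAC3 interval can lie near sites of both classes, so the sets overlap.

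**Figure D2:**
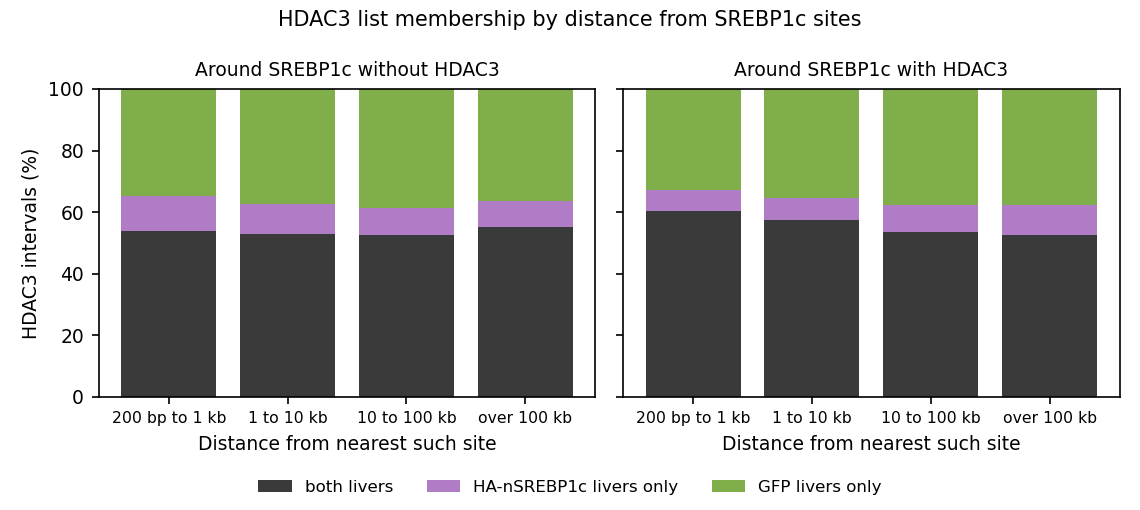
Percent of HDAC3 intervals that are no SREBP1c interval (y axis) called in both conditions (dark), in HA-nSREBP1c livers only (purple) or in GFP livers only (green), by distance from the nearest site without HDAC3 (left) or with HDAC3 (right). Around sites without HDAC3 the share called in both stays between 52.6% and 55.2%; around sites with HDAC3 it is 60.5% in the nearest class and 52.6% in the farthest.

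HDAC3-free sites also lay farther from other SREBP1c intervals. The nearest other SREBP1c interval of any class was at a median of 27447 bp from HDAC3-free sites and 11779 bp from HDAC3-overlapping sites. It lay within 10 kb of 919 HDAC3-free sites (31.6%, 95% interval 29.9 to 33.3%) and of 2287 HDAC3-overlapping sites (47.7%, 46.3 to 49.1%). Part of this difference is fixed by the rule, because an SREBP1c interval that touches an HDAC3-shared interval is itself HDAC3-overlapping. Neighbours under 200 bp away were found at 21 HDAC3-free and 334 HDAC3-overlapping sites. The nearest neighbour lay from 200 bp to 1 kb away for 6.23% of all HDAC3-free and 8.57% of all HDAC3-overlapping sites. The rule still acts in the nearest part of that range, where a single HDAC3 interval can touch a pair of SREBP1c intervals.

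The nearest SREBP1c neighbour of an HDAC3-free site was itself HDAC3-free in 1196 of 2906 cases (41.2%). For HDAC3-overlapping sites the nearest neighbour was HDAC3-free in 1474 of 4795 cases (30.7%). With the neighbour at 200 bp to 1 kb the shares were 33.1% of 181 and 28.5% of 411. At 1 to 10 kb they were 38.2% of 717 and 26.3% of 1542. At 10 to 100 kb they were 39.8% of 1240 and 36.6% of 1730. At over 100 kb they were 46.6% of 747 and 40.7% of 778. The totals also include neighbours under 200 bp away, where the rule largely fixes the class. Of those, 20 of 21 and 1 of 334 were HDAC3-free. HDAC3-free sites make up 37.7% of all SREBP1c intervals.

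Joined only to sites of their own class at distances of at most 10 kb, 2481 HDAC3-free sites (85.4%) stood alone and 356 (12.3%) formed pairs. The HDAC3-overlapping sites stood alone in 2863 cases (59.7%) by the same rule, though a set of 4795 lies more densely to begin with. Sites of the other class were left out of this joining. An SREBP1c interval of any class lay within 10 kb of 31.6% of HDAC3-free and 47.7% of HDAC3-overlapping sites. Of the HDAC3-free sites, 69 fell into 22 runs of 3 or more, and 18 of these runs held no HDAC3 interval within their span. The run with most sites held 5 HDAC3-free sites within 14120 bp at chr17:56415530-56429649. Its first site was 727 bp from an HDAC3 interval and its last 13193 bp. A run of 4 sites lay at chr17:45722232-45729278, with 1 HDAC3-overlapping SREBP1c site between them. The tightest runs of 3 were chr11:115947800-115949173, with 3 sites in 1374 bp, and chr9:57516092-57517715, with 3 sites in 1624 bp. Neither of these 2 held an HDAC3 interval or another SREBP1c interval. At chr2:93998018-94002590 the 3 sites were 91638 to 96011 bp from the nearest HDAC3 interval, the farthest of the 22 runs.

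The density of HDAC3-free sites, and their share of the SREBP1c intervals, varied from megabase to megabase. The window of 1 Mb with most HDAC3-free sites was chr7:52003714-53003713, where 19 lay beside 2 HDAC3-overlapping sites and 16 HDAC3 intervals. The window chr11:69486024-70486023 held 14 HDAC3-free sites, 3 HDAC3-overlapping sites and 15 HDAC3 intervals. By contrast, chr2:166681851-167681850 held 15 HDAC3-free sites beside 16 HDAC3-overlapping sites and 38 HDAC3 intervals. These windows were picked for their counts and are a description. In fixed bins of 1 Mb with at least 10 SREBP1c intervals, 220 bins in all, the median share of HDAC3-free sites was 33.3%. It ran up to 90.5%, at chr7:52000001-53000000, where 19 of 21 SREBP1c intervals were HDAC3-free (95% interval 69.6 to 98.8%). More than 50% were HDAC3-free in 26 bins, and 2 bins held no HDAC3-free site, one of them chr9:74000001-75000000 with 10 SREBP1c intervals and 28 HDAC3 intervals. The count of 0 in 10 allows a share of up to 30.8% (exact 95% interval). These bins were picked as extremes among the 220, and their intervals make no allowance for that choice. With as few as 10 SREBP1c intervals in a bin, shares differ between bins through counting error alone. Whether the shares of the 220 bins vary beyond that error was not tested.

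Over bins of 10 Mb the number of HDAC3-free sites followed the number of HDAC3 intervals. Across 273 bins Pearson's r was 0.852 and Spearman's rho 0.868. For HDAC3-overlapping sites, which are largely the same intervals as HDAC3 intervals, the values were 0.935 and 0.95. The bins differ in the number of genes and of mappable bases, and those were not measured. The correlation is given as a description.

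**Figure D3:**
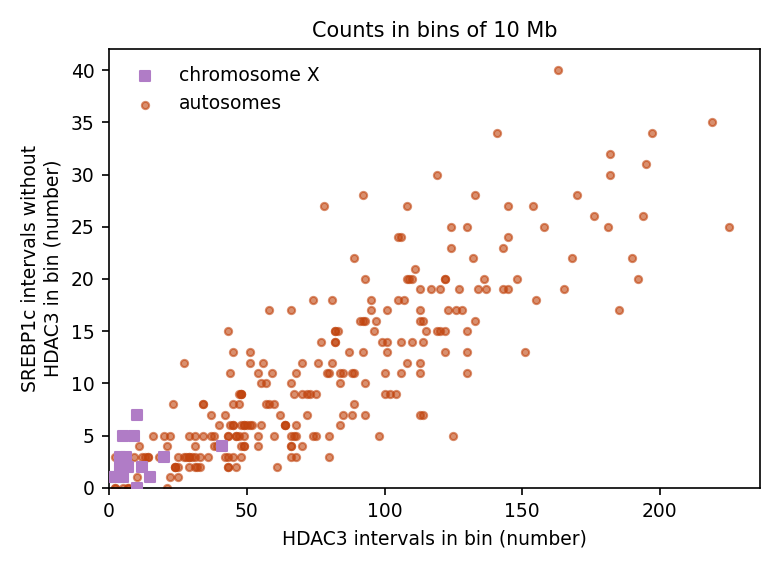
Number of SREBP1c intervals without HDAC3 (y axis) against number of HDAC3 intervals of either condition (x axis) in 273 bins of 10 Mb, with 257 bins of autosomes (orange circles) and 16 of chromosome X (purple squares). The counts rise together, up to 40 sites without HDAC3 and 225 HDAC3 intervals in an autosomal bin, while the bins of chromosome X hold at most 7 and 41.

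Chromosome X had the highest share of HDAC3-free sites. Of 61 SREBP1c intervals on chromosome X, 42 were HDAC3-free (68.9%, 95% interval 55.7 to 80.1%). On the 19 autosomes together 2864 of 7640 were HDAC3-free (37.5%), with single autosomes between 31.7% on chromosome 10 and 44.8% on chromosome 7. Chromosome X thus held 1.45% of HDAC3-free sites (1.04 to 1.95%) and 0.396% of HDAC3-overlapping sites (0.239 to 0.618%). It held 0.763% of all HDAC3 intervals, 155 of 20310. Chromosome 7 had 226 HDAC3-free sites for 1054 HDAC3 intervals, or 21.4 per 100, the highest ratio among the autosomes, against 27.1 per 100 on chromosome X and 11.1 per 100 on chromosome 10.

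**Figure D4:**
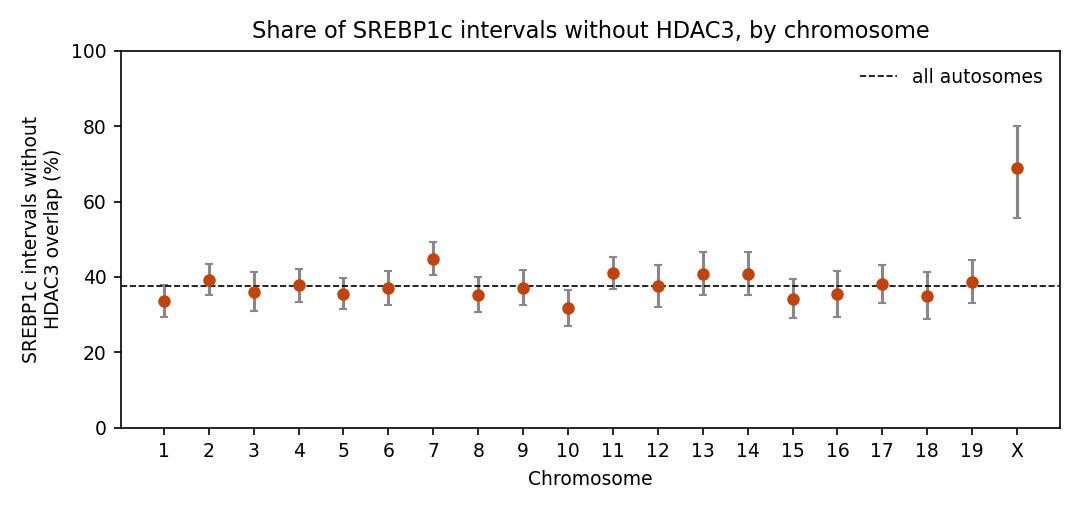
Percent of SREBP1c intervals without HDAC3 overlap (y axis) on each chromosome (x axis), with exact 95% binomial intervals as bars and the value of all autosomes, 37.5%, as a dashed line. Chromosome X is at 68.9% and no autosome exceeds 44.8%.

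The HDAC3-free sites of chromosome X were farther from HDAC3 than those of the autosomes. Chromosome X holds few HDAC3 intervals, 155 of 20310, and distances of its 19 HDAC3-overlapping sites were not measured separately. Whether the long distances are particular to the HDAC3-free sites was therefore not tested. The median distance of HDAC3-free sites to an HDAC3 interval was 93831 bp over 42 sites of chromosome X, and 11891 bp over the 2864 autosomal sites. HDAC3 lay within 10 kb of 8 sites on chromosome X (19%, 95% interval 8.6 to 34.1%) and of 1346 on autosomes (47%, 45.2 to 48.8%). Only 11 HDAC3-free sites in the genome were over 1 Mb from every HDAC3 interval, and 4 of these were on chromosome X. One of them, chrX:110098363-110098562, was 2169433 bp from HDAC3 and 9346399 bp from the next SREBP1c interval. The site farthest from HDAC3 was chr17:95264079-95264278, at 2989427 bp, with another HDAC3-free site 208251 bp away at chr17:95055828-95056027.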

How the data were processed

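ChIP-seq was made in 8 liver samples with 2 input pools, and RNA-seq in 17 further samples of the series, 27 in all. The authors deposited 1 peak list per ChIP condition, which holds positions only. The submitters' processing notes name Bowtie, HOMER and mm9. Their settings are unstated in the labels. Every interval is 200 bp long, as the files show. The labels do not say whether replicates were pooled, and the read depth behind the lists is unknown.

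Lists were intersected with Python 3.11.15, pandas 2.3.3 and NumPy 2.4.6, and the count of members was checked with bedtools 2.31.1. Distances run between centres. Intervals of shares are exact 95% (SciPy 1.17.1) and cover counting error only. The distance function was tested on simulated data. Coordinates are printed 1-based on mm9. The members and lists were chosen with earlier results of these data known, and the regions named (the closest, farthest, densest and most unlike between conditions) were chosen after their values were seen.

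The RNA table gives no mm9 positions and no mm9 genome or annotation was used here, so sites were tied to no gene or sequence. The planned comparisons of read counts of neighbouring genes, the named genes and the promoter motifs were therefore not analysed here.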

Additional observations from a re-analysis of the deposited data

How the results depend on the processing

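The number of HDAC3-free sites, 2906, stayed within 1.5 times under every alternative tried. It was 3007 with an overlap of at least 100 bp, and the same when only identical intervals counted as shared. With an HDAC3 interval within 200, 500 or 1000 bp between edges counted as shared it was 2810, 2669 and 2506. These rules do not count between centres, so 2506 differs from the 2567 sites with no HDAC3 centre within 1 kb. The number was 3625 with the HDAC3 list of HA-nSREBP1c livers only and 3401 with that of GFP livers only. The share with HDAC3 within 10 kb, 46.6%, moved to 41.9% and 38.1% when HDAC3 within 500 or 1000 bp between edges counted as shared. Such a rule removes near neighbours by construction. The share was 40.8% with sites defined and distances measured on the list of HA-nSREBP1c livers only, and 43.7% likewise on that of GFP livers. With the sites unchanged and distances to 1 list alone it was 37.9% for HA-nSREBP1c livers and 43% for GFP livers, lists that hold fewer intervals than both together. It was below the share in the other SREBP1c intervals in 9 of 9 alternatives. The chromosome X share was above that of the other SREBP1c intervals in 7 of 7. All these alternatives reuse the same lists, and the 100 bp and identical-interval rules select the same sites. Their agreement is therefore no independent support. All alternatives for these 2 shares, and the identical-interval rule, were chosen after seeing the data. No paired analysis was possible because each condition has 1 list without replicates. For the same reason no replicate could be left out. The alternatives that need genes, transcription starts or promoters were not run. A site can lack an HDAC3 interval because its signal fell below the peak threshold, and without scores or depth this limit could not be measured.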

Other observations

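The distance to HDAC3 can be set beside the order of intervals within the second block of the HA list. With the HDAC3-free sites split in file order into 4 groups of 726 or 727, the median distance to HDAC3 was 10808, 12672, 12715 and 12890 bp. The share with HDAC3 within 10 kb was 48.1, 45.3, 46.9 and 46% in the same order. The labels do not say what sets the order in the files, and it was neither tested nor used as a ranking.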
